A study of Mus musculus with 4 samples.

Results

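Genes of the amacrine fate pathway and of the GABA transmitter phenotype were examined in RNA sequencing of mouse retina at stage E13.5, with 2 libraries labelled control and 2 labelled Isl1cKO. The 9 genes were chosen by symbol, and all 9 were found among the 25239 gene IDs of the tables. Of these, 6 encode transcription factors (Foxn4, Ptf1a, Prdm13, Tfap2a, Tfap2b and Tfap2c) and 3 encode proteins of GABA synthesis and vesicular transport (Gad1, Gad2 and Slc32a1). The series describes the Isl1cKO retina as lacking Isl1, a LIM-homeodomain transcription factor. The Cre driver, the strain, the genotype of the controls and the number of embryos behind a library are not given in the sources used here. The labels do not say whether the replicates came from separate animals, and the p-values measure only the spread between these libraries.

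Amacrine cells are the inhibitory interneurons of the inner retina, and many of them release GABA. The forkhead factor Foxn4 acts in dividing retinal progenitors and promotes amacrine and horizontal cell fates. It acts upstream of Ptf1a, a bHLH factor of postmitotic precursors of both cell types, which works in a complex with an E protein and Rbpj. Prdm13 and the AP-2 factors Tfap2a and Tfap2b lie downstream of Ptf1a. Gad1 and Gad2 encode the enzymes that make GABA from glutamate, and Slc32a1 encodes the transporter that loads GABA and glycine into synaptic vesicles. Isl1 itself is known in retinal ganglion cells, in cholinergic starburst amacrine cells and in bipolar cells.

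Isl1 had 242 and 201 TPM in control replicates 1 and 2, against 321 and 223 TPM in the libraries labelled Isl1cKO (TPM is the share of transcripts, corrected for transcript length and scaled to the same total in each library). It was thus not lower where the labels say it was deleted, nor can single exons be read from gene-level values, so each direction given here rests on the labels. Depth in reads is unknown, and aligned sequence derived from coverage was 12.6 to 14.3 gigabases per library. Of 13984 genes tested with limma, 69 (0.493%) had an adjusted p-value under 0.05. The library labelled Isl1cKO replicate 2 stood apart from the other 3 in Xist, at 0.501 against 209 to 287 TPM, a gap that RNA of the same embryo would not give. It was also the lowest of the 4 libraries in 46.2% of tested genes.

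In bulk tissue, fewer cells of a type and less RNA per cell cannot be told apart. None of the 7 genes tested passed, and the direction of the means was not the same for all 9. Foxn4, the earliest factor, was slightly higher in the libraries labelled Isl1cKO, while Ptf1a, Prdm13, Tfap2a, Tfap2b, Gad2 and Slc32a1 had lower means, by -30.7% (Gad2) to -54.2% (Slc32a1). Tfap2c was close to level, and Gad1 was almost undetected in every library. Of the 9 genes, 7 reached the level required for testing, which was at least 1 TPM in at least 2 libraries. Both values labelled Isl1cKO lay below both control values in 4 of these 7, as they did in 30.0% of all genes tested, and also in Slc32a1, which was not among those tested. Both lay above in 1 of the 7, against 14.9% of all genes tested. The median log2 fold change was -0.50 over the 6 transcription factors, against -0.05 over all genes tested, and it was -0.19 without control replicate 1. Over the 3 GABA genes it was the value of Gad2 itself, -0.49, since Gad1 was near 0, and so it says little of them as a group. All fold changes are differences of log2(TPM + 1), a scale on which changes of weakly expressed genes look smaller than they are. Without the library labelled Isl1cKO replicate 2, the log2 fold changes were -0.33 for Ptf1a, -0.30 for Prdm13, -0.45 for Tfap2a, -0.33 for Tfap2b, -0.30 for Gad2 and -0.33 for Slc32a1.

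**Figure D1:**
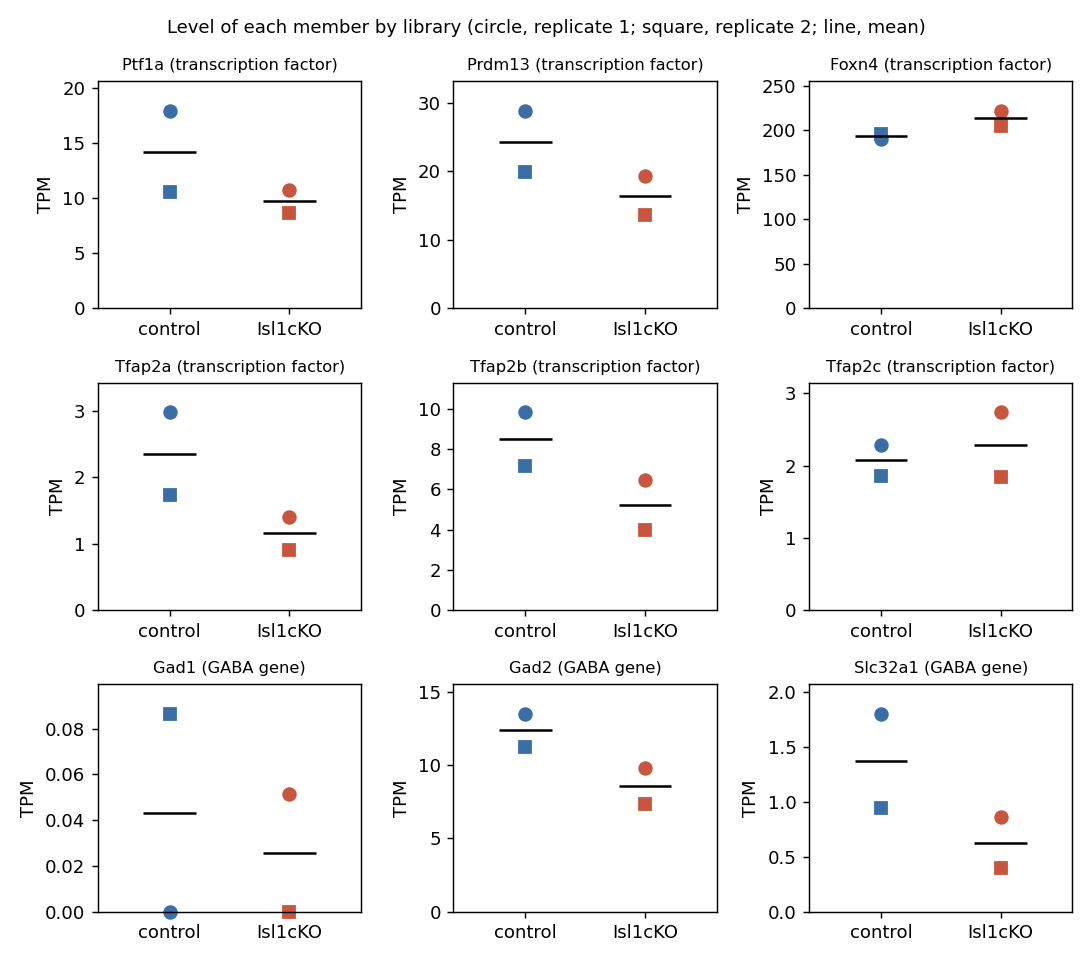
TPM of the 9 genes (vertical axes from 0, with a different range in each panel) in the 2 control libraries and the 2 libraries labelled Isl1cKO, with the mean of each group as a line. Prdm13, Tfap2a, Tfap2b, Gad2 and Slc32a1 separate downward, Foxn4 separates upward, and Ptf1a, Tfap2c and Gad1 overlap.

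Positions are those of the authors' tables, on mm10. Foxn4 (chromosome 5, 114254164 to 114273761, minus strand) was by far the most abundant of the 9. It stood at 190.2 and 196 TPM in the controls, against 222 and 205 TPM in the libraries labelled Isl1cKO. The groups did not overlap, but the means, 193 ± 4.15 and 214 ± 11.9 TPM (SD, n = 2 each), differed by only 10.6%. The log2 fold change was 0.14 (SE 0.09, 95% interval -0.09 to 0.37; limma adjusted p-value 0.598). Its replicates lay close together, and the interval is the narrowest of the 7 genes tested. Its log2 fold change lay between 0.09 and 0.20 when each library was left out in turn.

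Ptf1a (chromosome 2, 19445663 to 19447501, plus strand), the central factor of the amacrine and horizontal branch, stood at 17.9 and 10.5 TPM in the controls. In the libraries labelled Isl1cKO it stood at 10.8 and 8.67 TPM. The higher of these values lay just above the lower control, so the groups overlapped, and control replicate 1 alone was high. The means were 14.2 ± 5.23 and 9.72 ± 1.48 TPM (SD, n = 2 each), and the log2 fold change of -0.47 (SE 0.27, 95% interval -1.18 to 0.25) had a limma adjusted p-value of 0.583. The 2 controls differed from each other by 1.70-fold, more than the group means did. Without control replicate 1 the log2 fold change was -0.11, and without control replicate 2 it was -0.83.

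Prdm13 (chromosome 4, 21677480 to 21685963, minus strand) encodes a zinc-finger regulator that acts in amacrine cells downstream of Ptf1a. Its levels were 28.8 and 19.9 TPM in the controls and 19.3 and 13.6 TPM in the libraries labelled Isl1cKO. The groups were separated by a narrow gap, and control replicate 1 was again the highest. The log2 fold change was -0.53 (SE 0.25, 95% interval -1.19 to 0.13) and the adjusted p-value in limma was 0.490. Without control replicate 1 the fold change was -0.28. The proportion of Prdm13 to Ptf1a overlapped between the groups, at 1.61 and 1.89 times its TPM in the controls and 1.80 and 1.57 times in the libraries labelled Isl1cKO.

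The promoters of these factors are shown because Ptf1a works in a complex with Rbpj, whose core recognition letters are TGGGAA. RefSeq promoters (GRCm38.p6) were found for 8 of the 9 genes, and for 7 the start was that of the authors' table. Within the 250 bases before the start of these 7, TGGGAA (either strand) was present in 3 genes, Ptf1a, Prdm13 and Tfap2a, against 21.6% of all 32851 promoters in the table. The windows are chr2:19445467-19445526 (plus strand), chr4:21686152-21686211 and chr4:21685964-21686020 (both minus strand) and chr13:40734921-40734960 (minus strand). They read along the gene, with the motif or its reverse complement in capitals, and the motif begins 169, 221, 30 and 13 bases before the start. A match describes these letters only, and no binding was measured. The Foxn4 window held none of the motifs searched.
Ptf1a: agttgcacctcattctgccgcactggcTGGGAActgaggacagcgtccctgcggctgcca
Prdm13, distal: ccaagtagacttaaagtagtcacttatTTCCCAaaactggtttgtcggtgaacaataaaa
Prdm13, proximal: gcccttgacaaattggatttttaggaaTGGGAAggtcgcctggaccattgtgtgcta
Tfap2a: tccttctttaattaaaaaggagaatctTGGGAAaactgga

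The 3 AP-2 genes are described one by one, and differences between them were not tested. Tfap2b (chromosome 1, 19208914 to 19238845, plus strand), a marker of amacrine and horizontal cells, stood at 9.84 and 7.14 TPM in the controls, against 6.47 and 3.997 TPM in the libraries labelled Isl1cKO. The groups did not overlap, and the log2 fold change was -0.62 (SE 0.25, 95% interval -1.29 to 0.05; limma adjusted p-value 0.442). Tfap2a (chromosome 13, 40715302 to 40734920, minus strand), its close relative in the same cells, had 2.98 and 1.74 TPM in the controls. It had 1.41 and 0.901 TPM in the libraries labelled Isl1cKO, below both controls. The log2 fold change was -0.63 (SE 0.23, 95% interval -1.23 to -0.02) and the adjusted p-value in limma was 0.397. Without control replicate 1 these values were -0.41 for Tfap2b and -0.36 for Tfap2a.

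Tfap2c (chromosome 2, 172549593 to 172558621, plus strand), the third AP-2 gene, had means that differed by less than its replicates did. It stood at 2.29 and 1.86 TPM in the controls, against 2.74 and 1.84 TPM where the label is Isl1cKO, with overlapping groups. The log2 fold change of 0.09 (SE 0.17, 95% interval -0.36 to 0.53) had a limma adjusted p-value of 0.875, and it became negative without control replicate 2 (-0.01) or without Isl1cKO replicate 1 (-0.11). Tfap2b made up 65.1% and 66.5% of the summed TPM of the 3 AP-2 genes in the controls, and 61.0% and 59.3% in the libraries labelled Isl1cKO. Reads from the antisense transcripts Ptf1aos, over Ptf1a, and Gm26688, over Tfap2a, were low, at 0.260 TPM or less for Ptf1aos and 0.492 TPM or less for Gm26688. Whether the authors' counting used strand is not stated.

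**Figure D2:**
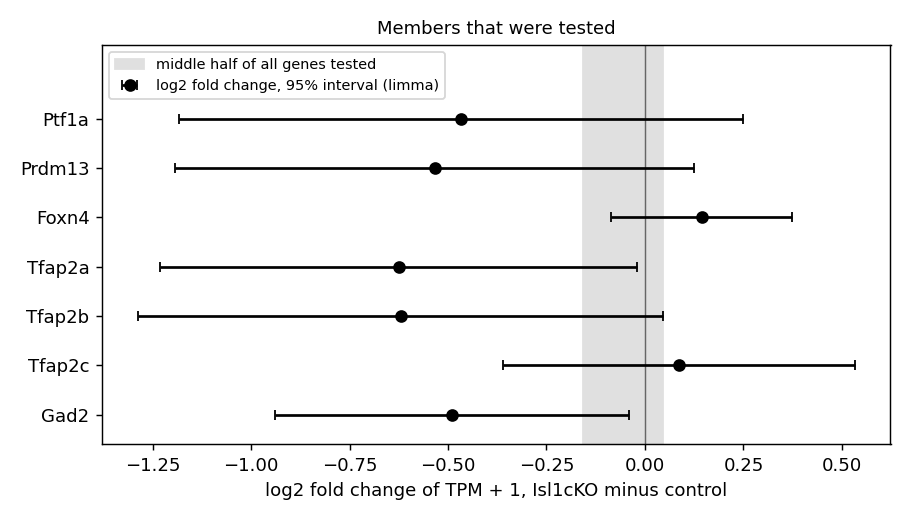
Log2 fold change of TPM + 1 (horizontal axis, Isl1cKO minus control) with its 95% interval from limma for the 7 genes tested, and, in grey, the range from the 25th to the 75th percentile of all genes tested. Foxn4 and Tfap2c lie at 0.14 and 0.09, and the other 5 lie between -0.47 and -0.63 with wide intervals.

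Relative to Foxn4 in the same library, Ptf1a and its downstream factors stood lower in both libraries labelled Isl1cKO. Ptf1a TPM was 9.41% and 5.36% of Foxn4 TPM in the controls, and 4.85% and 4.23% in the libraries labelled Isl1cKO. Prdm13 was at 15.2% and 10.1% of Foxn4 in the controls, and at 8.70% and 6.63% in the other group. Tfap2b was at 5.17% and 3.64%, then 2.91% and 1.95%, in the same order. Tfap2a was at 1.57% and 0.886%, then 0.634% and 0.439%. These 4 ratios did not overlap between the groups, whereas that of Tfap2c did, at 1.20%, 0.949%, 1.23% and 0.895%. Foxn4 was itself higher in both libraries labelled Isl1cKO, which lowers any ratio to it there. Ptf1a overlapped in TPM and separated only as a ratio. The share of all genes whose ratio to Foxn4 separates was not computed. With 2 libraries against 2, an exact permutation test of a ratio cannot give a p-value below 0.333, so the ratios are a description. In each of the 4 genes the controls were further apart than control replicate 2 and Isl1cKO replicate 1.

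**Figure D3:**
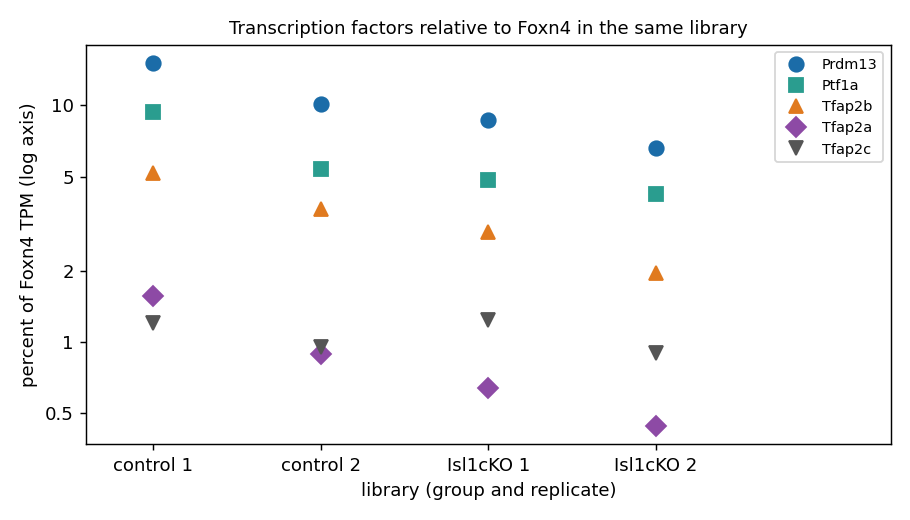
TPM of 5 transcription factors as a percentage of Foxn4 TPM in the same library (vertical log axis) for each of the 4 libraries. Prdm13, Ptf1a, Tfap2b and Tfap2a are highest in control replicate 1 and lowest in Isl1cKO replicate 2, while Tfap2c is highest in Isl1cKO replicate 1, at 1.23%.

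Of the 2 GABA-synthesizing enzymes, Gad2 had the higher RNA level in each library. Gad2 (chromosome 2, 22622327 to 22693877, plus strand) stood at 13.503 and 11.3 TPM in the controls, against 9.83 and 7.33 TPM where the label is Isl1cKO, with no overlap. The means were 12.4 ± 1.59 and 8.58 ± 1.76 TPM (SD, n = 2 each), a difference of -30.7% that did not pass the test. The log2 fold change was -0.49 (SE 0.17, 95% interval -0.94 to -0.04), and limma gave an adjusted p-value of 0.378, the lowest of the 7. Gad2 and Tfap2a were the 2 genes of the 7 with an unadjusted p-value under 0.05, a mark that 12.1% of all genes tested reached. Without control replicate 1 the value for Gad2 was -0.37.

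Gad1 (chromosome 2, 70562129 to 70602014, plus strand) was listed at 0 in control replicate 1 and in Isl1cKO replicate 2. It stood at 0.0865 TPM in control replicate 2 and at 0.0516 TPM in Isl1cKO replicate 1. No fold change is meaningful at this level. Whether a listed 0 means absence was not settled. Of 81 ribosomal protein genes taken by symbol, 3 were listed at 0 in some library, and of 10 housekeeping genes 0 were. The 3 were not examined one by one, so they cannot show that an expressed gene was listed at 0. Gad2 made up 99.2% or more of the TPM of the 2 enzymes in each library. The antisense transcript Gad1os, which overlaps the start of Gad1, was itself at 0.595 TPM or less.

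Slc32a1 (chromosome 2, 158610758 to 158615747, plus strand), the vesicular transporter, stood at 1.80 and 0.9502 TPM in the controls, against 0.860 and 0.401 TPM in the libraries labelled Isl1cKO. The groups did not overlap, and replicates differed by 1.90-fold within the controls and 2.15-fold within the other group. It reached 1 TPM in control replicate 1 alone and so was not among the genes tested. When every gene with a value above 0 was tested, which made 19784 genes, its log2 fold change was -0.53 (SE 0.25, 95% interval -1.25 to 0.18) with a limma adjusted p-value of 0.558. Slc32a1 TPM was 13.4% and 8.44% of Gad2 TPM in the controls, and 8.75% and 5.47% in the libraries labelled Isl1cKO, so this proportion overlapped between the groups.

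The promoters of the GABA genes are shown because bHLH factors such as Ptf1a bind E-boxes, whose letters are CANNTG. Among the 7 genes with a matching start, an E-box was present in 3, Gad1, Gad2 and Slc32a1, against 66.2% of all promoters of the same length. The AP-2 core GCCNNNGGC (either strand) was present in 1 of the 7, Gad2, against 13.7% of all promoters. The windows around the E-boxes nearest to the start of Gad2 and Slc32a1 are chr2:22622224-22622283 and chr2:158610694-158610753 (plus strand). The E-box, in capitals, begins 76 bases before the start in Gad2 and 37 bases before it in Slc32a1.
Gad2: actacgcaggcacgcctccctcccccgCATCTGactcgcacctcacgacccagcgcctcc
Slc32a1: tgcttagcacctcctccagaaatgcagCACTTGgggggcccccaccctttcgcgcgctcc

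In order of mean TPM over the 4 libraries, Foxn4 (203) was followed by Prdm13 (20.4), Ptf1a (12.0), Gad2 (10.5), Tfap2b (6.86), Tfap2c (2.18), Tfap2a (1.76), Slc32a1 (1.004) and Gad1 (0.0345). The ranges over the libraries did not overlap between Foxn4 and Prdm13, between Tfap2b and Tfap2c, or between Slc32a1 and Gad1. All other neighbours in this order had overlapping ranges. Within a library, Prdm13 exceeded Ptf1a in 4 of 4 libraries, whereas Ptf1a exceeded Gad2 in 3 of 4.

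Across the 4 libraries, 6 of the 9 genes were highest in control replicate 1, as 35.9% of tested genes were. Of the 9, 7 were lowest in Isl1cKO replicate 2, as 46.2% of tested genes were. Both counts include Slc32a1, which was not among the genes tested. The members' patterns were compared by the root mean square difference of log2(TPM + 1), each gene centred on its own mean. Prdm13 was closest to Tfap2a (0.07) and Tfap2b (0.07), and Foxn4 was closest to Tfap2c (0.14), among the 7 tested. Among 13832 other genes, those nearest to Ptf1a were Ets1 (0.06), Syt16 (0.06) and Slc1a6 (0.07), and those nearest to Gad2 were Afap1 (0.01), Srsf12 (0.02) and Ackr1 (0.02). With only 4 libraries such likeness is common, and 330 genes lay within 0.1 of Gad2 and 18 within 0.1 of Ptf1a.

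Partners, upstream factors and targets of Ptf1a showed no common direction. Of 18 genes listed, 13 were tested, 0 passed in limma (0 higher and 0 lower), and the median log2 fold change was 0.05, with 1 gene separated downward and 4 upward. Among all genes tested 30.0% separated downward and 14.9% upward, and the counts of every list here stand against these shares. Rbpj, the DNA-binding partner of Ptf1a, stood at 141 and 125 TPM in the controls, against 144 and 132 TPM in the other group. Rbpjl, its pancreatic counterpart, was listed at 0 in each library. Pax6, a homeodomain factor of progenitors and amacrine cells, stood at 537 and 539 TPM in the controls, against 610 and 598 TPM in the libraries labelled Isl1cKO (log2 fold change 0.17, adjusted p-value 0.486 in limma). Rorb, a nuclear receptor upstream of Ptf1a, stood at 123 and 115 TPM, then 136 and 143 TPM (0.22, adjusted p-value 0.424 in limma). Prdm8, a transcriptional repressor of the same family as Prdm13, had the highest log2 fold change of the list, at 0.39 (adjusted p-value 0.233).

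Regulators and markers of later amacrine cells were tested for 24 of 28 genes, and 0 passed in limma. Both values labelled Isl1cKO lay below both controls in 9 of the 24 and above them in 5, against 30.0% and 14.9% of all genes tested. The median log2 fold change was -0.04 and turned positive under quantile normalization (0.04). Of the 9 below both controls, Ebf1, Ebf3 and Elavl4 are also in the list of ganglion cell markers. Bhlhe22, a bHLH factor of amacrine subtypes, was nearly constant, at 25.3 and 25.1 TPM in the controls, against 26.1 and 25.1 TPM in the other group. Neurod4, a bHLH factor of early amacrine differentiation, stood at 45.3 and 37.2 TPM in the controls, and 37.5 and 22.8 TPM in the libraries labelled Isl1cKO (log2 fold change -0.47, adjusted p-value 0.568 in limma, with -0.13 without Isl1cKO replicate 2 and -0.82 without Isl1cKO replicate 1). Nr4a2, a nuclear receptor of a GABAergic amacrine subset, had the highest value of the list, at 6.49 and 8.87 TPM against 10.8 and 10.5 TPM (0.44, adjusted p-value 0.382, from 0.24 to 0.64 when 1 library was left out). Ebf3, a helix-loop-helix factor, had the lowest, at 135 and 105 TPM against 47.0 and 29.7 TPM (-1.64, adjusted p-value 0.139). Ebf1 had 49.5 and 43.1 TPM in the controls and 23.7 and 19.9 TPM in the other group (-1.06, adjusted p-value 0.0829). Both lay past the threshold with a mean-variance trend in limma, with adjusted p-values of 0.0226 for Ebf1 and 0.0454 for Ebf3, and Ebf1 also with FPKM (0.0317).

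The list of starburst amacrine and cholinergic genes held the only 2 calls among the 5 pathway lists. Of 8 genes tested out of 10, Isl1 itself included, 1 was called higher and 1 lower, against 0.493% of all genes tested called. Both values labelled Isl1cKO lay below both controls in 3 of the 8 and above them in 1. Fezf1, a zinc-finger factor of starburst cells, rose from 0.710 and 0.769 TPM to 2.52 and 2.25 TPM (log2 fold change 0.96, adjusted p-value 0.0466 in limma). Ngfr, the low-affinity neurotrophin receptor, which is not specific to amacrine cells, fell from 33.5 and 32.9 TPM to 9.79 and 10.5 TPM (log2 fold change -1.62, adjusted p-value 0.0126). The call of Fezf1 was lost in 7 of the 13 alternative settings that tested it, among them FPKM (log2 fold change 0.59) and the omission of any 1 library. That of Ngfr was lost in 3 of 14, without either control replicate or without Isl1cKO replicate 2, with adjusted p-values in limma of 0.137, 0.126 and 0.0676. Chat, which makes acetylcholine, was at 0.0230 TPM or less, and Slc18a3, which loads it into vesicles, at 0.142 TPM or less in each library. Slc5a7, the choline transporter, was measurable, at 1.78 and 1.27 TPM in the controls and 1.12 and 0.667 TPM in the other group (-0.42, limma adjusted p-value 0.445). Ache, which breaks acetylcholine down and is not specific to cholinergic cells, overlapped between the groups, at 7.002 to 11.4 TPM.

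GABA uptake, breakdown and precursor supply showed no common direction. Of 17 genes, 15 were tested, 0 passed in limma, and the median log2 fold change was -0.02 (0.02 with median-ratio scaling), with 4 genes separated downward and 2 upward. Slc6a11, a GABA transporter, stood at 5.35 and 4.72 TPM, then 3.53 and 3.97 TPM (-0.34, adjusted p-value 0.327). The transporter Slc6a13 was instead at 5.73 and 8.55 TPM in the controls, against 9.53 and 11.3 TPM in the other group (0.51, adjusted p-value 0.435, from 0.25 to 0.76 when 1 library was left out). Slc38a3, a glutamine transporter, had the highest value, 0.62 (adjusted p-value 0.264), at 24.1 and 18.3 TPM against 33.7 and 32.004 TPM. Abat, which breaks GABA down, overlapped between the groups, at 68.2 and 59.7 TPM against 60.1 and 58.6 TPM.

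Genes of the other transmitters were given for comparison. Of 8 glycine and glutamate genes, 5 were tested and 0 passed in limma, and the median was -0.42 on the log2 scale, or -0.08 without Isl1cKO replicate 2. Slc17a6, the vesicular glutamate transporter of ganglion cells, stood at 20.6 and 15.0 TPM in the controls, against 14.1 and 6.68 TPM in the libraries labelled Isl1cKO (-0.79, adjusted p-value 0.492, with -0.30 without Isl1cKO replicate 2 and -1.28 without Isl1cKO replicate 1). Slc1a3, a glutamate uptake transporter, had the lowest value at -1.32 (adjusted p-value 0.167), and Shmt2, a mitochondrial enzyme of glycine metabolism, the highest at 0.27 (adjusted p-value 0.622, from 0.07 to 0.47 when 1 library was left out). Slc6a9, the glycine transporter of glycinergic amacrine cells, was nearly level, at 9.19 and 9.21 TPM against 8.92 and 8.62 TPM.

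**Figure D4:**
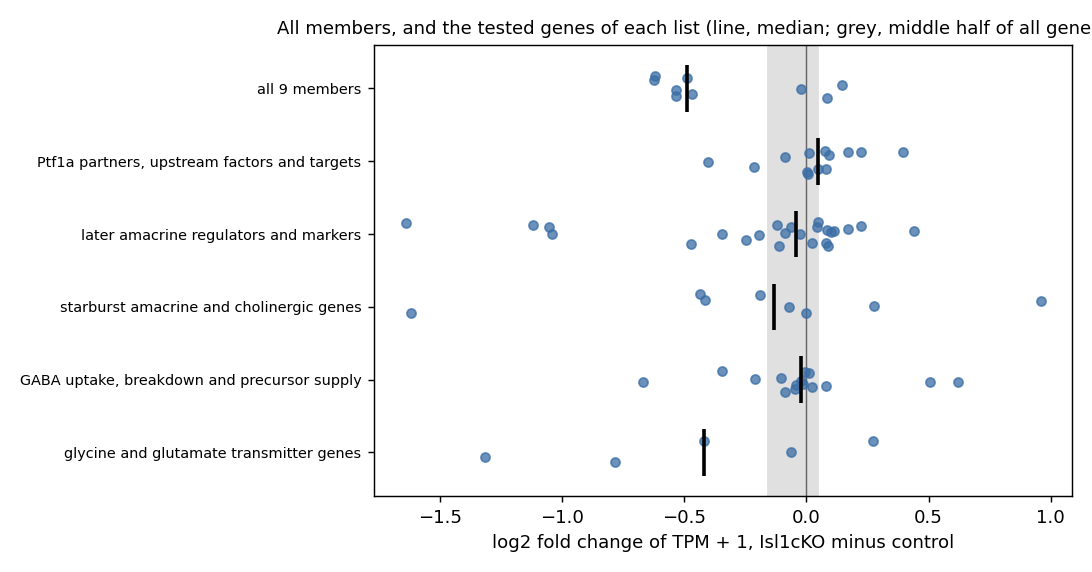
Log2 fold change of TPM + 1 (horizontal axis, Isl1cKO minus control) of all 9 genes and of the tested genes of each pathway list, 1 point per gene, with the median as a line and the 25th to 75th percentile range of all genes tested in grey. The median of the 9 genes lies at -0.49, that of the Ptf1a partners at 0.05 and that of the GABA handling genes at -0.02.

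Horizontal cells share Foxn4, Ptf1a, Tfap2a and Tfap2b with amacrine cells, and the median over the 8 tested markers of horizontal cells was 0.13 on the log2 scale (-0.02 without Isl1cKO replicate 1), with 0 called, 2 separated downward and 4 upward. Onecut3, a cut-homeodomain factor and the highest of them, stood at 10.03 and 8.53 TPM in the controls, against 22.996 and 16.6 TPM in the libraries labelled Isl1cKO (log2 fold change 1.0027, adjusted p-value 0.171 in limma). Ndnf, the lowest, stood at 5.72 and 5.78 TPM, then 4.76 and 3.12 TPM (-0.47, adjusted p-value 0.420 in limma). Onecut1 overlapped between the groups (-0.01). Summed TPM of 22 ganglion cell markers was 4438 and 3825 in the controls and 2569 and 1859 in the other group. Of 21 tested, 3 were called, all lower, against 0.493% of all genes tested, with 16 separated downward and 2 upward. Summed TPM of 14 progenitor markers was 8875 and 8465, then 7603 and 8288, with 0 of 14 called. Their median was -0.05 on the log2 scale (0.15 without Isl1cKO replicate 1), with 4 separated downward and 5 upward. Ccnd1, with the lowest log2 fold change of the 14, is a large part of these sums, at 1944 and 1498 TPM, then 848 and 961 TPM. Photoreceptor precursor markers had a median of -0.45 over 8 tested genes, with 0 called, 4 separated downward and 0 upward, and summed to 387 and 351 TPM, then 350.03 and 281 TPM. The part of these cell types in the results for the amacrine and GABA genes was not tested.

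The AP-2 genes are also expressed in surface ectoderm, lens and neural crest. Summed TPM of 14 surface ectoderm markers was 30.4 and 29.2 in the controls and 27.01 and 26.8 in the libraries labelled Isl1cKO, with 0 of 5 tested genes called. The defining surface ectoderm factor Trp63 was at 0.205 TPM or less in each library. Summed TPM of 12 periocular mesenchyme markers was 33.3 and 25.1, then 22.9 and 17.96, with 0 of 6 called, and Foxc1 was at 0.406 TPM or less. Lens markers summed to 266 and 316 TPM in the controls and to 42.1 and 34.0 TPM in the other group. Of 17 tested, 9 were called, all lower, against 0.493% of all genes tested, with 13 separated downward and 0 upward. The part of lens and mesenchyme in the levels of Tfap2a and Tfap2b was not tested. For the GABA genes, markers of ventral forebrain were examined, and Nkx2-1 was listed at 0 in all 4 libraries, with Lhx6 at 0.123 TPM or less and Dlx5 at 0.259 TPM or less.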

How the data were processed

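RNA of 4 libraries of mouse retina was analysed, 2 labelled control and 2 labelled Isl1cKO. Per the labels' protocols, the kit keeps strand and mRNA was enriched by its poly(A) tail. The submitters' processing notes name Trimmomatic, FastQC, HISAT2, SAMtools, StringTie and DESeq2 and the build mm10. Versions, annotation and strand setting are not given in the sources used here. Each deposited table gives TPM, FPKM and coverage per gene, per the file headers. The deposited coverage served only to describe depth, and the deposited FPKM only an alternative. TPM was summed over repeated rows of a gene ID, though each of the 9 genes had 1 row.

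In R 4.3.3, limma 3.58.1 (lmFit, then eBayes) modelled log2(TPM + 1) on the group label alone, over the 13984 genes with at least 1 TPM in at least 2 libraries. P-values were Benjamini-Hochberg adjusted over all genes tested, with a threshold of 0.05. The members, the lists and the tests were chosen with earlier results of these data known, and the motifs were too. The genes named are the members, called genes and the highest and lowest fold change of each pathway list, genes whose role is explained, and the 3 genes nearest to Ptf1a and to Gad2. The lowest fold change of some lists is not reported here. Promoter sequences are from RefSeq (GRCm38.p6, the assembly that mm10 names). No batch is given in the labels. Alternatives changed the pseudocount, the filter, the unit, the scaling, the use of repeated rows, the variance prior, the replicate block and the libraries used.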

Additional observations from a re-analysis of the deposited data

How the results depend on the processing

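In the alternatives that used all 4 libraries, 0 of the tested members passed. In each of the scaling and unit alternatives 5 members had both values labelled Isl1cKO below both controls. Slc32a1, not tested in the main setting, is among the 5. In the main setting 30.0% of all genes tested lay below in the same way, and this share was not computed for the alternatives. The median log2 fold change ranged from -0.53 to -0.37 for the transcription factors and from -0.53 to -0.28 for the GABA genes over the settings that used all 4 libraries, and from -0.81 to -0.19 and from -0.68 to -0.27 when 1 library was left out. The filter and variance settings do not enter these medians. Tfap2c, at 0.09, changed sign when a library was left out, with values from -0.11 to 0.29. The count of 69 called genes was 44 at a pseudocount of 0.1, 15 with no filter, 109 with FPKM and 110 with a mean-variance trend, and 10 to 37 without 1 library, where the lone library is assumed to vary like the other group. Upper-quartile scaling was added after seeing the data. With the replicate block 265 genes passed and none of the members did, the lowest adjusted p-value in limma being 0.0758 (Tfap2b). With the block Ebf1, Ebf3 and Onecut3 passed, with adjusted p-values of 0.0196, 0.00939 and 0.0270. Deviations of the first replicates correlated at 0.13 across genes, and since no label names a common litter or day the libraries share only a number. The causes were not tested. No detection limit is given for Gad1, because the number of reads is not known.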
